A study of Homo sapiens with 4 samples.

Results

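The liver-enriched transcription factors HNF4A, HNF4G, FOXA1, FOXA2, FOXA3, CEBPA, ONECUT1 and NR5A2 were followed in Huh7 cells with and without a METTL16 guide. The members were taken by gene symbol from a list, and 8 of the 18806 symbols in the deposited table matched. That list was chosen with earlier results of these data known. Huh7 is a line from a human hepatocellular carcinoma, and METTL16 is an RNA methyltransferase that places N6-methyladenosine. All cells came from a single Cas9 clone of Huh7, were infected with a lentiviral guide RNA and were selected with hygromycin B. The sgNS group carried a non-targeting guide and has the genotype label WT, and the METTL16 KO group carried a METTL16 guide and has the genotype label METTL16 knockdown. There were 2 libraries per group, described as biological replicates, and how they were separately made is not given in the sources used here. Whether the libraries of a group carry the same guide sequence is not given either. The p-values of single genes rest on the spread between these 4 libraries, pooled in part over genes.

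These factors bind regulatory DNA of hepatocyte genes and of each other's genes, and together they keep the hepatocyte programme running. FOXA proteins open closed chromatin in the early endoderm, HNF4A then holds most secretory and metabolic liver genes active, CEBPA adds the genes of energy metabolism, ONECUT1 acts in the choice between hepatocytes and bile duct cells, and NR5A2 drives bile acid and cholesterol genes. In hepatocellular carcinoma their levels are often read as a measure of how differentiated the tumour cells are.

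Expression was given as TPM, transcripts per gene corrected for transcript length and scaled to a sum of 1000000 in each library. Read depth is unknown, so counting error cannot be stated. Between 11723 and 12074 genes reached 1 TPM in a library. Each gene with a mean of at least 1 TPM over the 4 libraries (11971 genes, all 8 members among them) was tested on log2(TPM + 0.1) with limma, and a gene was called at a Benjamini-Hochberg adjusted p under 0.05. Over all genes tested the log2 fold changes (METTL16 KO over sgNS) had a median at 0.16. The calls test each gene against no change and not against this median, so small changes are to be read beside it. Whether the median gene itself was unchanged was not tested. METTL16 itself had 26.3 and 25.1 TPM in sgNS versus 17.6 and 18.8 TPM in METTL16 KO (log2 fold change -0.50, SE 0.062, adjusted p of 2.4e-05 in limma). Exact permutation of 2 libraries against 2 cannot give a p under 0.33.

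The hepatocyte label of the cells was checked on 8 defining markers. All 8 were abundant in all 4 libraries, from 358 TPM for FGB in sgNS to 10079 TPM for ALB in METTL16 KO, and their summed level went from 17524 and 17548 TPM to 22073 and 21788 TPM. TTR, APOA1 and FGB rose, as did ALB, whose call was lost after quantile normalization, and SERPINA1, whose call was lost after median-ratio scaling. APOB and TF fell, and AHSG, at 1384 and 1363 TPM against 1361 and 1359 TPM (-0.01, and 0.11 after quantile normalization), did not pass. Other cell types were checked with short marker lists. KRT7 and KRT19, which define bile duct epithelium, did not exceed 0.21 TPM in any library, while CD24 in the same list went from 515 and 543 TPM to 1506 and 1558 TPM and EPCAM from 20.2 and 20.5 to 34.5 and 34.0 TPM. The whole list of 6 biliary markers summed to 774 to 801 TPM in sgNS and 1750 to 1801 TPM in METTL16 KO. Of its 4 tested genes, 2 rose (CD24 and EPCAM) and 2 fell, beside 50.1% higher and 25.6% lower among all genes. SPP1 fell from 7.52 and 6.40 TPM to 1.57 and 1.85 TPM (log2 fold change -1.96), and SOX9 had a log2 fold change of -0.16. PTPRC and CD3E, which define leukocytes, stayed at or below 0.48 TPM, and the 4 immune markers summed to 1514 to 1556 TPM against 919 to 933 TPM, nearly all of it LYZ. CD68, the fourth of these, rose from 3.40 and 2.72 TPM to 8.86 and 8.57 TPM (log2 fold change of 1.49). The 4 stromal and the 4 endothelial markers summed to at most 2.1 and 5.1 TPM. The part of these markers in the results that follow was not tested. In a bulk library, a change in how many cells express a gene and a change of RNA per cell cannot be told apart.

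Of the 8 factors, 5 rose upon METTL16 KO (ONECUT1, NR5A2, HNF4A, HNF4G and FOXA3), FOXA1 fell, and CEBPA and FOXA2 did not pass the test. Of all genes tested, 50.1% were called higher and 25.6% lower. With the values as deposited, 5 of 8 higher and 1 of 8 lower is thus close to the split among genes at large. After median-ratio scaling, which brings the median of all genes to 0, the members split 5 higher to 3 lower, and 36.4% of all genes were higher and 36.5% lower. Past a fold threshold (an unadjusted p under 0.01 and a log2 fold change of at least 1) 2 members remained, ONECUT1 and NR5A2, against 7.69% of all genes. The groups did not overlap in 6 of the 8 factors, and in 87.4% of all genes. Their log2 fold changes ran from -0.15 to 1.31, and ONECUT1 and NR5A2 lay at percentiles 95.7 and 93.1 of all genes, HNF4A and HNF4G at 85.2 and 84.7, FOXA3 at 71.4, CEBPA and FOXA2 at 39.5 and 39.4, and FOXA1 at 26.5.

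**Figure D1:**
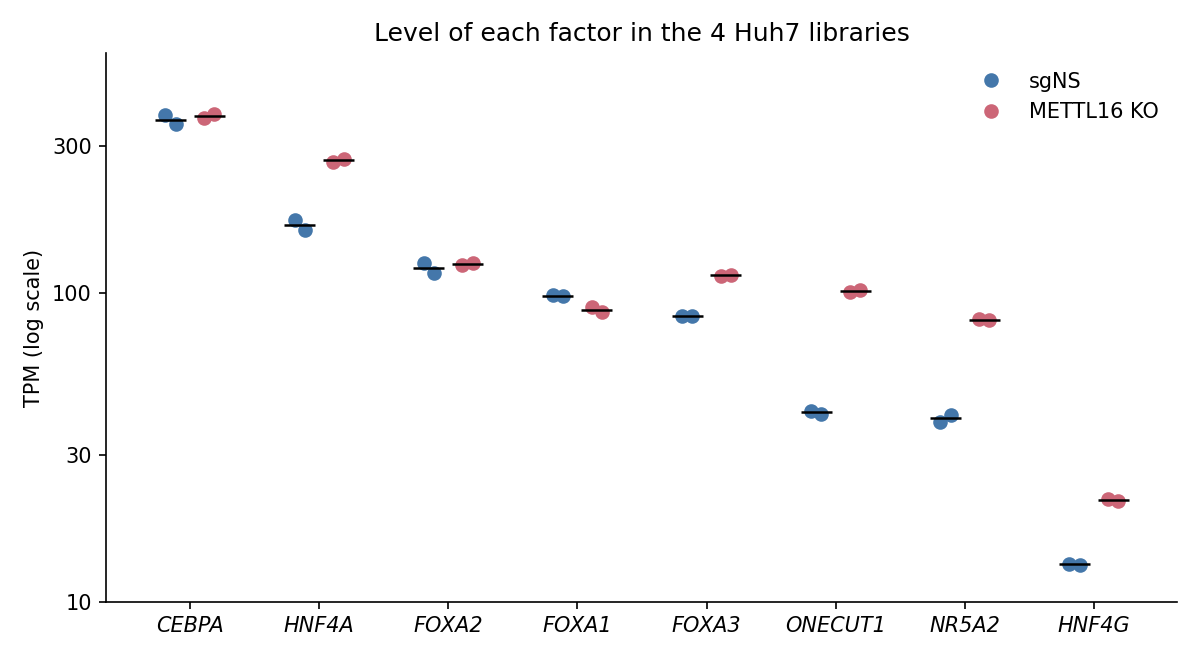
Level of each factor in TPM, on a log axis, in the 2 sgNS (blue) and the 2 METTL16 KO (red) libraries, with points for libraries and black lines for group means. The points of CEBPA and FOXA2 overlap between groups, and ONECUT1 moves from about the level of NR5A2 (41.1 against 39.3 TPM) to above FOXA1 (102.0 against 88.5 TPM).

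The DNA just upstream of ONECUT1, NR5A2 and HNF4A, the 3 members that rose most, is shown here, since factors of this group are known to bind each other's promoters. RefSeq start sites on GRCh38.p14 were matched for 6 of the 8 members, with 2 start sites each for HNF4A and NR5A2. Each line gives the 250 bases before a start, read 5′ to 3′ on the strand of the gene, and none of these windows overlaps an exon of GENCODE release 44. The windows of ONECUT1, of NR5A2 and of the downstream HNF4A start lie between exons within the span of their own gene, and that of the upstream HNF4A start lies just before the gene. Capitals mark a match, on either strand, to the short core of a motif bound by HNF4, FOXA, C/EBP, ONECUT or NR5A2, and the cores are spelled out after the sequences.
ONECUT1, chr15:52790337-52790586, minus strand: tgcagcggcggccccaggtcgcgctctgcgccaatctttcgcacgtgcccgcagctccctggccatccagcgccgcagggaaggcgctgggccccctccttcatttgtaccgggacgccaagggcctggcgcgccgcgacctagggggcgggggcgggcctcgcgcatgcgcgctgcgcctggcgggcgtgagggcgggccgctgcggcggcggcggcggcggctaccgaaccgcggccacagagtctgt
NR5A2, downstream start, chr1:200042341-200042590, plus strand: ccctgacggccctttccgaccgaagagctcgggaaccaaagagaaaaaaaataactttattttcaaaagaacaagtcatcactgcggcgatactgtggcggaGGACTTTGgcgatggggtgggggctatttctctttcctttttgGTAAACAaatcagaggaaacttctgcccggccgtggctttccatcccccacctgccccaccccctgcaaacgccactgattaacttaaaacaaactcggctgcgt
HNF4A, upstream start, chr20:44355449-44355698, plus strand: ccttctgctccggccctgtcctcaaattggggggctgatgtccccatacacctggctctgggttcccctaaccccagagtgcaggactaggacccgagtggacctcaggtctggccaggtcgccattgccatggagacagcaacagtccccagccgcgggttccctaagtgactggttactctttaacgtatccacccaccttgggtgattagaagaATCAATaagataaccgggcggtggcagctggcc
HNF4A, downstream start, chr20:44400989-44401238, plus strand: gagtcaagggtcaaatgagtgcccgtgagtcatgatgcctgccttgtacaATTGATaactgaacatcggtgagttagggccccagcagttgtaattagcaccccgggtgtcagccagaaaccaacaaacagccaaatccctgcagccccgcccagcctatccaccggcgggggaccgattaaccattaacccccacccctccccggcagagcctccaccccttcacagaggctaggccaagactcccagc

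The window of ONECUT1 is 76.8% G and C and holds 0 of the 6 cores. The downstream window of NR5A2 holds an HNF4 core at -148 to -141 and a FOXA core at -105 to -99, counted back from the start, and the matches do not overlap. The upstream window of HNF4A, in front of the promoter known from pancreas and gut, holds an ONECUT core at -33 to -28. The downstream window, in front of the main promoter of adult liver, holds an ONECUT core at -200 to -195. Short cores turn up by letters alone in many windows. The share was taken over 34788 windows of the same length in front of RefSeq starts, both strands read. The HNF4 core searched was CAAAGTCC, found in 1.0% of windows. The FOXA cores were TGTTTAC, found in 3.0% of windows, as well as a variant with a different sixth letter, TGTTTGC, found in 3.2%. For C/EBP proteins the core was TTGCNNAA, where N is any base, found in 9.0% of windows. The ONECUT core ATTGAT was found in 5.6% of windows and the NR5A2 core AAGGTCA in 3.4%. Of the windows not printed, FOXA1 holds 1 FOXA core, while those of CEBPA, FOXA3 and the upstream start of NR5A2 hold 0 cores. TPM per gene do not separate the 2 promoters of HNF4A or the 2 of NR5A2, and a match of letters is a description of this window only.

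HNF4A and HNF4G, nuclear receptors that bind the same DNA element, rose by nearly the same factor. HNF4A had 172 and 160 TPM in sgNS versus 266 and 273 TPM in METTL16 KO. Both KO libraries lay above both sgNS libraries, with a ratio of mean TPM of 1.62 and a log2 fold change of 0.70 (SE 0.041, adjusted p of 6.8e-08 in limma). HNF4G, the paralog known best from gut and kidney, had 13.3 and 13.2 TPM in sgNS versus 21.5 and 21.2 TPM in METTL16 KO. Its ratio was 1.61, with a log2 fold change of 0.68 (SE 0.062, adjusted p of 2.0e-06). The balance between the paralogs did not move beyond the spread between libraries. HNF4A was 13.0 and 12.1 times as abundant as HNF4G in sgNS and 12.4 and 12.9 times in METTL16 KO, and its share of the summed HNF4 TPM was 92.6% ± 0.32 (SD, n = 2) against 92.7% ± 0.18 (SD, n = 2), with an exact two-sided permutation p of 1.0. The summed HNF4 level went from 186 and 173 TPM to 288 and 294 TPM.

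Among the FOXA pioneer factors, FOXA3 rose, FOXA1 fell slightly and FOXA2 did not pass. FOXA3, the FOXA factor most tied to adult hepatocytes, had 84.64 and 84.63 TPM in sgNS versus 114.1 and 114.5 TPM in METTL16 KO (log2 fold change 0.43, SE 0.038, adjusted p of 1.6e-06 in limma), with a ratio of 1.35. FOXA1, which acts in early endoderm and also in breast and prostate epithelium, had 98.4 and 97.9 TPM in sgNS versus 89.9 and 87.1 TPM in METTL16 KO. The groups were separate, but the change was small, with a log2 fold change at -0.15 (SE 0.040, adjusted p of 0.0055), and without METTL16 KO replicate 2 it was -0.13 with an adjusted p of 0.082 (range over its alternatives 3.9e-05 to 0.082). FOXA2, the factor of definitive endoderm, had 125 and 117 TPM in sgNS versus 123 and 125 TPM in METTL16 KO. Its groups overlapped, with a log2 fold change of 0.04 and a 95% interval from -0.06 to 0.13 (adjusted p of 0.44). The direction of FOXA2 depended on the scaling, with -0.13 after median-ratio scaling (adjusted p of 0.018) and -0.06 after quantile normalization (adjusted p of 0.20), and it was -0.013 without sgNS replicate 2. Its adjusted p ranged from 0.018 to 0.76 over the alternatives.

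The make-up of the FOXA family shifted while its sum changed little. The 3 genes summed to 308 and 299 TPM in sgNS and to 327 TPM in both METTL16 KO libraries. FOXA3 took 27.5% and 28.3% of that sum in sgNS and 34.9% and 35.1% in METTL16 KO, while FOXA1 went from 31.9% and 32.7% to 27.5% and 26.7% and FOXA2 from 40.6% and 39.0% to 37.6% and 38.3%. Shares within a library do not depend on a scaling factor for the library. All 3 shares had separate groups, each with an exact two-sided permutation p of 0.33, the smallest that 2 libraries against 2 can give. In sgNS the order within the family was FOXA2, FOXA1, FOXA3, and in METTL16 KO it was FOXA2, FOXA3, FOXA1.

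CEBPA, the C/EBP factor of quiescent, metabolically active hepatocytes, was the most abundant member, at 377 and 353 TPM in sgNS versus 368 and 381 TPM in METTL16 KO. The groups overlapped, and the log2 fold change was 0.04 with a 95% interval from -0.04 to 0.12 (adjusted p of 0.37 in limma). Median-ratio scaling put CEBPA at -0.13 with an adjusted p of 0.011. The sign also rested on single sgNS libraries, with 0.09 (adjusted p of 0.044) without sgNS replicate 1 and -0.0086 (adjusted p of 0.83) without sgNS replicate 2, and over all its alternatives the adjusted p ranged from 0.011 to 0.83. Other genes of the family moved much more. CEBPD, an inducible factor of the acute-phase response, had 47.5 and 48.8 TPM in sgNS versus 357 and 364 TPM in METTL16 KO (log2 fold change 2.90, adjusted p of 2.0e-12). CEBPB, its partner in inflammation and regeneration, went from 88.5 and 85.7 TPM to 130 and 133 TPM, a log2 fold change of 0.59 (adjusted p of 1.9e-07). CEBPD was thus 0.126 and 0.138 times as abundant as CEBPA in sgNS and 0.971 and 0.957 times in METTL16 KO. Of the summed level of CEBPA, CEBPB, CEBPD and CEBPG, CEBPA held 57.4% ± 1.1 (SD, n = 2) in sgNS and 36.4% ± 0.25 (SD, n = 2) in METTL16 KO, and CEBPD 7.59% ± 0.36 and 35.1% ± 0.11.

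**Figure D2:**
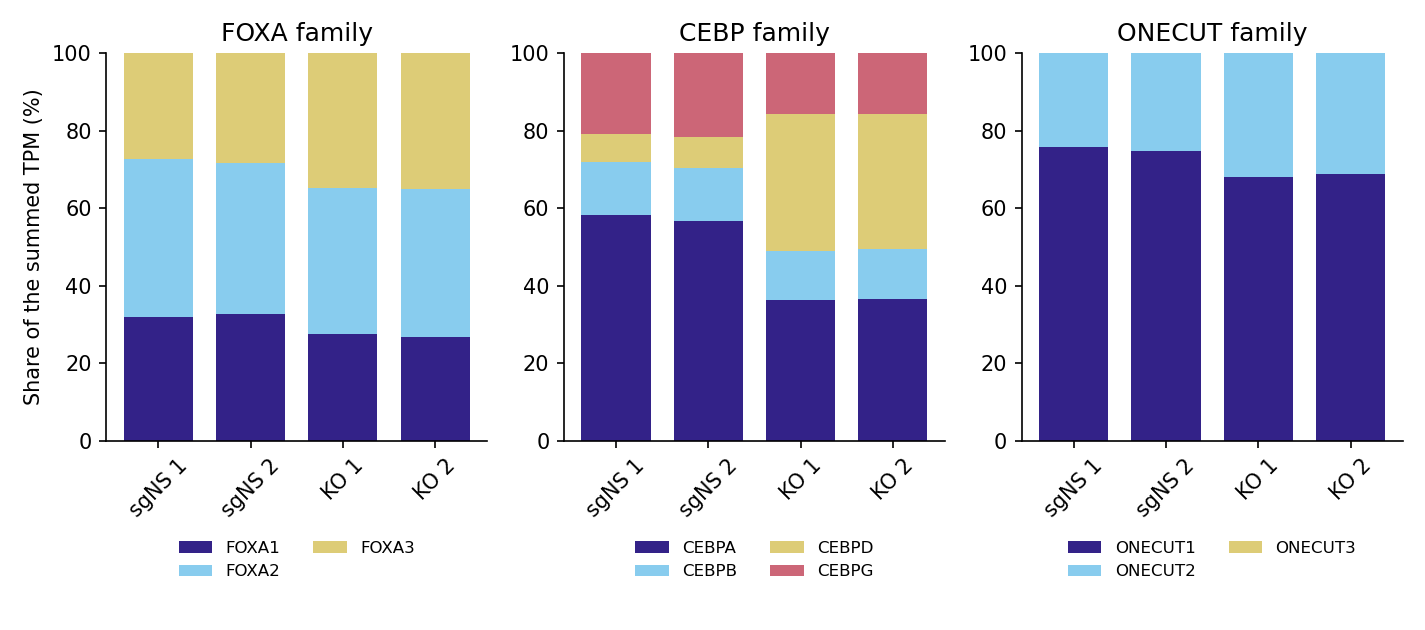
Stacked bars of the share (%) that each gene took of the summed TPM of its family in each of the 4 libraries, for FOXA, CEBP and ONECUT. The yellow part of the FOXA bars (FOXA3) grows from 27.9% to 35.0% on average and that of the CEBP bars (CEBPD) from 7.59% to 35.1%, while ONECUT3 takes at most 0.13% and cannot be seen.

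ONECUT1 changed most among the 8 factors. Known also as HNF6, it is a cut-homeodomain protein that activates FOXA2 and HNF4A during liver and pancreas formation. It had 41.6 and 40.7 TPM in sgNS versus 101.2 and 102.8 TPM in METTL16 KO. The libraries within a group differed by less than 2 TPM, and the ratio of means was 2.48, a log2 fold change of 1.31 (SE 0.043, 95% interval from 1.21 to 1.40, adjusted p of 8.3e-10 in limma). It was 1.14 after median-ratio scaling. Its paralog ONECUT2 rose as well, from 13.3 and 13.7 TPM to 47.2 and 46.2 TPM (log2 fold change of 1.78, adjusted p of 5.7e-10), while ONECUT3 was at or below 0.19 TPM and was not tested. ONECUT1 therefore held a smaller part of a larger sum, from 75.3% ± 0.62 (SD, n = 2) of 54.3 to 54.9 TPM in sgNS to 68.5% ± 0.55 (SD, n = 2) of 149 TPM in METTL16 KO. The 3 tested genes whose profile over the 4 libraries was nearest to that of ONECUT1, by Euclidean distance on centred log2(TPM + 0.1), were CNNM1 (distance 0.014), CPT1A (0.025), the gatekeeper of fatty acid entry into mitochondria, and MYL9 (0.027), a myosin light chain. With 4 libraries in 2 groups, such a likeness is mostly an equal fold change, and their log2 fold changes were 1.31, 1.30 and 1.32.

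NR5A2, also known as LRH-1, is an orphan nuclear receptor that activates genes of bile acid and cholesterol handling. It had 38.3 and 40.3 TPM in sgNS versus 82.2 and 81.7 TPM in METTL16 KO. The groups were far apart, with a ratio of 2.09 and a log2 fold change of 1.06 (SE 0.046, 95% interval from 0.96 to 1.16, adjusted p of 7.1e-09 in limma). NR0B2 (SHP), the corepressor that bile acids induce and that silences NR5A2 and HNF4A, moved the other way. It had 36.0 and 39.9 TPM in sgNS versus 24.0 and 24.9 TPM in METTL16 KO (log2 fold change -0.63, adjusted p of 3.7e-06). NR5A2 and NR0B2 were thus nearly level in sgNS, with ratios of 1.07 and 1.01, and in METTL16 KO NR5A2 was 3.42 and 3.29 times as abundant. FXR (NR1H4), the bile acid receptor upstream of NR0B2, had 179 TPM in both sgNS libraries versus 167 and 164 TPM in METTL16 KO (log2 fold change -0.11, adjusted p of 0.011).

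**Figure D3:**
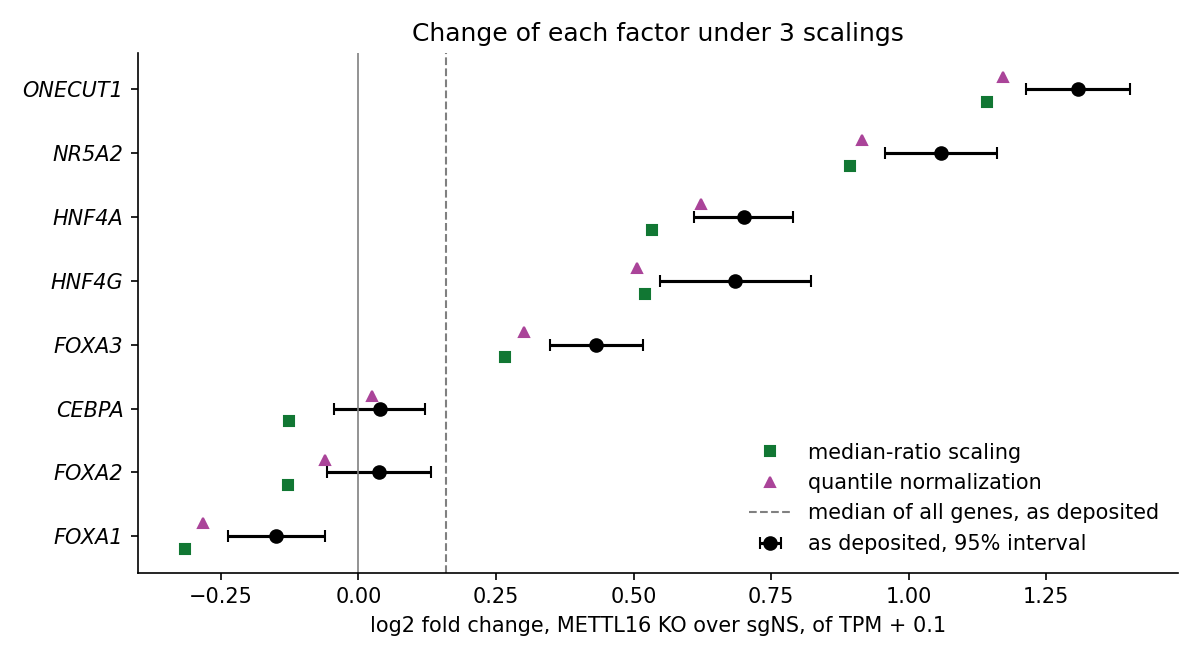
Log2 fold change of each factor (METTL16 KO over sgNS, on TPM + 0.1), with black points and 95% intervals for the values as deposited, green squares after median-ratio scaling and purple triangles after quantile normalization. The rows of HNF4A, HNF4G, FOXA3, ONECUT1 and NR5A2 stay right of 0 under all 3 scalings, FOXA1 stays left of 0, and FOXA2 and CEBPA lie on both sides of it.

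TPM are corrected for transcript length, so that levels of different genes can be set side by side. The spread between libraries does not measure a bias of a gene that repeats in every library. The order of nearly level genes is therefore a description only. In sgNS the order of the group means was CEBPA (365 TPM), HNF4A (166), FOXA2 (121), FOXA1 (98.1), FOXA3 (84.6), ONECUT1 (41.1), NR5A2 (39.3) and HNF4G (13.2). No neighbours in this order had overlapping libraries, but ONECUT1 and NR5A2 were nearly level, with 40.7 TPM in the lower library of ONECUT1 and 40.3 TPM in the higher library of NR5A2. In METTL16 KO the order was CEBPA (374 TPM), HNF4A (270), FOXA2 (124), FOXA3 (114), ONECUT1 (102.0), FOXA1 (88.5), NR5A2 (82.0) and HNF4G (21.3), again without overlap between neighbours. The step from FOXA2 down to NR5A2 spanned a ratio of means of 1.08 to 1.15 at each place, and the middle of the order was more level than in sgNS, where FOXA3 was 2.06 times as abundant as ONECUT1. Against all genes tested, the level of CEBPA lay at percentile 96.7 in sgNS and 96.8 in METTL16 KO, that of HNF4A at 92.4 and 95.4, that of ONECUT1 at 67.7 and 85.8, and that of HNF4G at 35.1 and 44.4. Ratios between members in a library do not depend on such a factor either. HNF4A was 0.457 and 0.454 times as abundant as CEBPA in sgNS and 0.723 and 0.717 times in METTL16 KO, and ONECUT1 was 0.423 and 0.415 times as abundant as FOXA1 in sgNS but 1.12 and 1.18 times in METTL16 KO.

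The other factors that work with these 8 in hepatocytes were read from a list of 33 genes, of which 29 were tested, 17 rose, 6 fell and 6 did not pass. With the values as deposited these are shares of 58.6% and 20.7%, near the 50.1% higher and 25.6% lower of all genes. After median-ratio scaling 16 were higher and 9 lower, beside 36.4% and 36.5% of all genes. Their log2 fold changes had a median at 0.45, beside 0.16 over all genes. CEBPD, ONECUT2 and ATF5 were among the largest rises. ONECUT2 was given beside ONECUT1. ATF5, a liver-enriched factor of the stress response, rose by 1.02 on the log2 scale. The endoderm factors GATA4 and GATA6 and the corepressor PROX1, which were singled out after their values were seen, had log2 fold changes of 0.91, 0.76 and 0.84, with GATA4 going from 90.2 and 84.3 TPM to 164 and 163 TPM.
The largest falls were in HLF, NR0B2, ZHX2 and NR2F2. HLF, a clock-controlled factor of adult liver, had 26.2 and 25.9 TPM in sgNS versus 11.0 TPM in both METTL16 KO libraries (log2 fold change -1.23, adjusted p of 2.1e-08). ZHX2, a repressor of AFP in adult liver, fell by 0.48 on the log2 scale, and NR2F2 (COUP-TFII), which competes with HNF4 for DNA, fell by 0.47. The factors of the list with a mean under 1 TPM, among them ONECUT3, NR1I2 and NR1I3, were not tested.

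**Figure D4:**
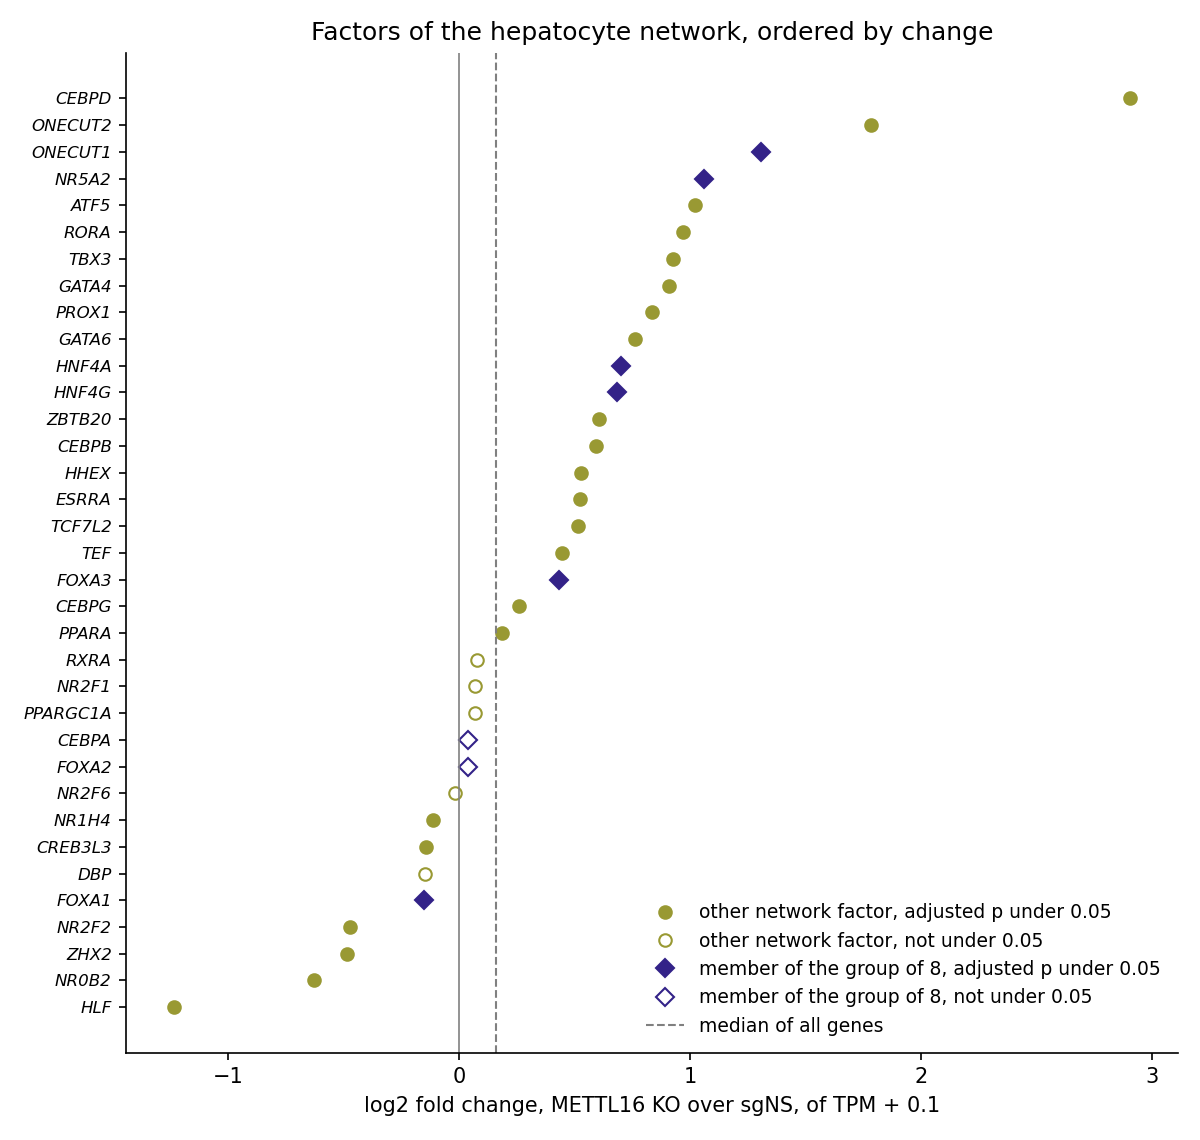
Log2 fold change (METTL16 KO over sgNS, on TPM + 0.1) of the 8 members (blue diamonds) and the other tested factors (olive circles, 2 of them left out), in the order of change, with filled symbols for an adjusted p under 0.05 in limma. ONECUT1 and NR5A2 stand in the upper part beneath CEBPD and ONECUT2, and FOXA1 is among the lower genes, above NR2F2, ZHX2, NR0B2 and HLF.

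Genes known from textbooks as direct targets were grouped by the factor they are known for, with 61 genes in all. Of these, 44 were tested, 28 rose, 12 fell and 4 did not pass, beside 50.1% higher and 25.6% lower among all genes. Median-ratio scaling gave 24 higher and 16 lower, beside 36.4% and 36.5%. The lists share genes, and they hold the members HNF4A and FOXA2, so their counts repeat part of the member result. PCK1, CPS1 and ADH1B reached a mean of 1 TPM only through METTL16 KO, and PKLR only through sgNS, so they had to differ. Of the 40 targets with a mean of at least 1 TPM in both groups, 25 rose (62.5%) and 11 fell (27.5%). Among the 11594 such genes these shares were 49.5% and 25.8%. The falls were thus near the share of genes at large, and whether the rises exceed it was not tested. Of 20 tested targets of HNF4A, 11 rose and 8 fell, with a median at 0.22 on the log2 scale. Of the 18 with at least 1 TPM in both groups, 10 rose (55.6%) and 7 fell (38.9%). Among all such genes these shares were 49.5% and 25.8%. After median-ratio scaling 9 of the 20 were higher and 9 lower, beside 36.4% and 36.5% of all genes. LIPC, the hepatic lipase, went from 70.9 and 71.5 TPM to 144 and 142 TPM (log2 fold change of 1.00), and APOA1, the main HDL protein, rose by 0.80 on the same scale. APOA2, a major protein of HDL, had 12410 and 12347 TPM in sgNS versus 3277 and 3375 TPM in METTL16 KO (log2 fold change -1.90, adjusted p of 1.3e-12 in limma). APOM, a carrier of sphingosine 1-phosphate, fell by 1.58, the coagulation factor gene F7 fell by 0.57, and PKLR, the liver pyruvate kinase, was at 3.10 and 2.50 TPM against 0.28 and 0.47 TPM.

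Among the FOXA targets 9 of 10 passed as higher, but PCK1 and CPS1 had to. Of the 8 with a mean of at least 1 TPM in both groups, 7 rose and 1 fell, with a median at 0.75, beside 49.5% and 25.8% of all such genes. HNF4A, itself a member, was among these rises. AFP, the fetal albumin of hepatoblasts and hepatoma, went from 1737 and 1793 TPM to 10387 and 10197 TPM (log2 fold change of 2.54), and IGFBP1 rose by 1.52. The fall in this list was in TF, the transferrin gene, which fell by 0.43. AFP was 0.234 and 0.238 times as abundant as ALB in sgNS and 1.03 times in both METTL16 KO libraries. Of the 8 tested targets of CEBPA, 7 passed as higher, but PCK1, CPS1 and ADH1B had to. Of the 5 that reached 1 TPM in both groups 4 rose, and their median was 0.41, not 1.11 as for all 8. SERPINA1 lost its call after median-ratio scaling, ASS1 did not pass, and CDKN1A, the cell cycle inhibitor p21, went from 16.6 and 17.2 TPM to 46.3 and 47.6 TPM (log2 fold change of 1.47).

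Of 6 tested targets of NR5A2, 3 rose and 3 fell, with a median of -0.21, beside 50.1% higher and 25.6% lower among all genes, and after median-ratio scaling 2 were higher and 3 lower. SCARB1, the HDL receptor, had 250 and 240 TPM in sgNS versus 129 and 134 TPM in METTL16 KO (log2 fold change -0.90, adjusted p of 5.6e-09 in limma). NR0B2 and APOM, given above, also fell, while ABCG8, a sterol exporter, went from 5.29 and 4.32 TPM to 12.1 and 12.2 TPM (1.33). AFP rose, and the call of CCNE1 (0.22, adjusted p of 0.012) was lost after median-ratio scaling (0.05, adjusted p of 0.52) and without sgNS replicate 1 or METTL16 KO replicate 2 (adjusted p of 0.08 and 0.14). CYP7A1, the rate-limiting enzyme of bile acid synthesis and a target of NR5A2 and ONECUT1, had 0.02 and 0.03 TPM in sgNS versus 1.23 and 1.35 TPM in METTL16 KO, below the mean required for the test. Of the ONECUT1 targets, 4 were tested and 3 rose, HNF4A and TTR among them, beside 50.1% of all genes. FOXA2 did not pass, and both HNF4A and FOXA2 are themselves members. After median-ratio scaling 3 of the 4 were higher and 1 lower, beside 36.4% and 36.5% of all genes. TTR, transthyretin, had 410 and 430 TPM in sgNS versus 700 and 706 TPM in METTL16 KO (0.74).

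**Figure D5:**
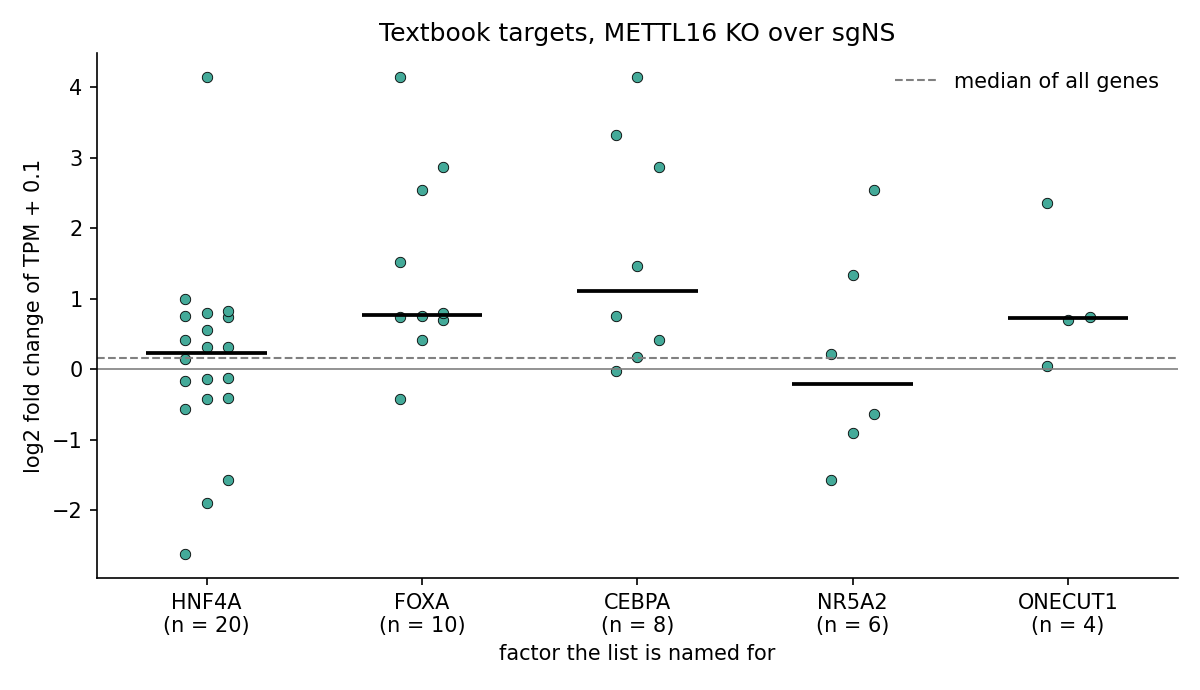
Log2 fold change (METTL16 KO over sgNS, on TPM + 0.1) of the tested textbook targets, 1 point per gene, in columns by the factor, with black bars at the list medians and a dashed line at the median of all genes (0.16). The medians lie at 0.22 for HNF4A, 0.78 for FOXA, 1.11 for CEBPA, -0.21 for NR5A2 and 0.72 for ONECUT1, and without the genes that reached 1 TPM in 1 group alone those of FOXA and CEBPA are 0.75 and 0.41.

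On GRCh38 (GENCODE release 44) the 8 genes, all protein coding, are spread over 6 chromosomes. HNF4A lies at chr20:44355699-44432845 on the plus strand and FOXA2 at chr20:22580998-22585455 on the minus strand. FOXA3 is at chr19:45863989-45873797 (plus) and CEBPA at chr19:33299934-33302534 (minus). ONECUT1 is at chr15:52755053-52791078 (minus), NR5A2 at chr1:200027614-200177420 (plus), FOXA1 at chr14:37589552-37596059 (minus) and HNF4G at chr8:75407914-75566834 (plus). Genes tested within 1000000 bases of HNF4A had log2 fold changes with a median at 0.44, and 16 of 20 lay above 0. The median of all genes tested was itself above 0, at 0.16. Around FOXA3 the median was 0.21 over 43 genes (29 above 0) and around CEBPA 0.20 over 15 genes (11 above 0). Around ONECUT1 the median was -0.13 over 7 genes (3 above 0) and around NR5A2 0.07 over 6 genes (4 above 0). It was 1.12 over 2 genes around HNF4G, of which 1 lay above 0 and 1 below. The median was 0.001 over 3 genes around FOXA1 (2 above 0) and 0.19 over 3 genes around FOXA2 (3 above 0). TTC6 overlaps FOXA1 on the opposite strand and had 2.55 and 2.05 TPM in sgNS versus 3.32 and 3.77 TPM in METTL16 KO (log2 fold change 0.61, adjusted p of 0.0041, and 0.052 without METTL16 KO replicate 2). Antisense RNA genes that overlap HNF4A and CEBPA are not analysed here. The library kit keeps strand, but the strand setting of the quantification is not given in the sources used here, so reads of overlapping genes may not have been told apart.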

How the data were processed

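RNA-seq of 4 Huh7 libraries (2 sgNS, 2 METTL16 KO) was analysed from the deposited table of TPM values per gene symbol. According to the methods and the submitters' processing notes, the authors used Cutadapt for trimming, STAR for alignment (GRCh38) and RSEM for quantification, and versions and annotation are not given in the sources used here. The methods call the value RPKM, but each library sums to 1000000, so it was treated as TPM. The labels name both ribosomal RNA depletion and an mRNA kit. Depth is unknown.

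Columns were assigned to samples by name. Genes averaging at least 1 TPM (11971) were fitted as log2(TPM + 0.1) with limma 3.58.1 in R 4.3.3 (lmFit, eBayes with trend, no block, two-sided). The variance of each gene was drawn towards that of genes of like level, so limma p-values do not measure the spread of that gene alone. Without the trend the limma adjusted p was 0.00077 for HNF4A (6.8e-08 with it) and 0.00014 for ONECUT1 (8.3e-10 with it). Benjamini-Hochberg adjustment was over all genes. The fit was tested on simulated data in which a small part of the genes was changed, evenly up and down. That setting does not cover calls in most genes, as found here. Shares within families were compared by exact permutation in scipy 1.17.1. Log2 fold changes on this scale understate changes of low genes. Members, lists, motifs and families were chosen with earlier results of these data known, and the CEBP and ONECUT shares and the ratios between genes were added after values were seen, as were NR1H4, CEBPB, GATA4, GATA6 and PROX1. Genes named are the members, METTL16, the hepatocyte markers, up to 4 rises and 4 falls per list with separate groups, and further genes chosen for their role. Some genes, and the lists named for them, are not reported here by name, although the counts over lists include them. Upstream windows came from RefSeq (GRCh38.p14). Alternatives were other pseudocounts, filters and scalings, no trend, a replicate block, a fold threshold and each library left out.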

Additional observations from a re-analysis of the deposited data

How the results depend on the processing

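ONECUT1, NR5A2, HNF4A, HNF4G and FOXA3 stayed higher and passed an adjusted p of 0.05 in limma under every alternative run for them, with log2 fold changes of 1.14 to 1.32, 0.89 to 1.09, 0.53 to 0.75, 0.51 to 0.69 and 0.27 to 0.43. FOXA1 stayed lower, from -0.31 to -0.13, and lost its call without METTL16 KO replicate 2 (left out in turn, the libraries gave -0.17 to -0.13). The signs of FOXA2 and CEBPA were not stable. With median-ratio scaling they were -0.13 and -0.13, both then called lower, so that 3 members were lower. With quantile normalization FOXA2 was at -0.061, and with libraries left out FOXA2 ranged from -0.013 to 0.088 and CEBPA from -0.0086 to 0.086, where CEBPA was called without sgNS replicate 1. Leaving out single libraries gave 0 to 1 members lower, and the fold threshold left 2 higher and 0 lower. With the replicate block ONECUT1 was at 1.31 and 5 members were higher, so the block changed no call of a member. The deviations of same-numbered libraries had a correlation of -0.044 over 11971 genes, and the labels do not say that a number marks a shared batch, so the groups were not treated as paired. Of 67 other genes named or picked by the rule, 8 changed their call or direction under some alternative. AHSG turned to 0.11 with quantile normalization, ALB, at 0.04, and TTC6 lost their call there, and SERPINA1 lost its call with median-ratio scaling. The counts of network factors and of textbook targets called in each direction stayed within 1.5 times under the alternatives. Why these values moved was not examined, and their cause was not tested. An arm left with 1 library was assumed to vary like the other group.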

Other observations

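Factors that define neighbouring endoderm lineages were measured beside the hepatocyte factors. Of 8 intestinal factors, 5 were tested and 4 rose, beside 50.1% of all genes. CDX2, the master factor of intestinal epithelium, had 19.4 and 18.3 TPM in sgNS versus 109 and 120 TPM in METTL16 KO (log2 fold change 2.60, adjusted p of 5.1e-11 in limma), which put it at about the level of FOXA3 in the same libraries (114 TPM). KLF5, a factor of proliferating gut crypts, went from 6.04 and 5.76 TPM to 44.1 and 47.2 TPM (2.93), and ISX, a gut homeodomain factor, from 3.16 and 2.53 TPM to 8.41 and 8.15 TPM (1.52). CDX1 and HOXB13 were at or below 0.05 TPM in all 4 libraries.

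Of 7 pancreatic factors, 2 were tested. PDX1 went from 13.2 and 13.6 TPM to 28.3 TPM in both METTL16 KO libraries (log2 fold change of 1.07), and RFX6, which reached the mean required only through METTL16 KO, was at 0.19 and 0.21 TPM against 4.90 and 3.56 TPM. PTF1A, NEUROG3 and NEUROD1 were listed at 0 in all 4 libraries. Of 9 biliary and progenitor factors, 8 were tested, 6 rose and 2 fell, beside 50.1% higher and 25.6% lower among all genes. The falls were thus near the share of genes at large, and whether the rises exceed it was not tested. ELF3, an epithelial factor, went from 22.1 and 24.4 TPM to 162 TPM in both METTL16 KO libraries (2.80), and HES1, the Notch target, from 65.4 and 63.8 TPM to 114 and 112 TPM (0.81). SOX9, the factor of bile duct cells, had 230 and 231 TPM in sgNS versus 207 TPM in both METTL16 KO libraries (-0.16), and YAP1 fell by 0.31. Of the mesenchymal factors, SNAI1 and ZEB1 were tested, SNAI1 fell by 0.23 (adjusted p of 0.017, and 0.065 and 0.21 without sgNS replicate 1 and METTL16 KO replicate 1) and ZEB1, with a log2 fold change of 0.13, did not pass. TWIST1 was listed at 0 in all 4 libraries.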
